A study of Homo sapiens with 12 samples.

Results

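The circular RNAs (circRNAs) co-precipitated with IGF2BP2 were compared with those recovered by normal rabbit IgG in parental MDA-MB-231, a human breast cancer line of the triple-negative type. The comparison used 6 of the 12 libraries of the series, 3 with a monoclonal antibody against IGF2BP2 (Sens RIP) and 3 with IgG (Sens IgG), chosen by their sample titles. All 6 came from the drug-sensitive line, which is labelled wild type with no treatment; both groups share that background and differ in the antibody. The other 6 libraries came from a derivative of the same line made resistant by continuous treatment with a BET inhibitor. The question, as the series' design text puts it, is which circRNAs are enriched with IGF2BP2 over the IgG background. The labels do not state whether the replicates are separate cultures, so the p-values measure only the spread between these libraries, which may be technical. Markers of the cell line could not be checked, because the table holds circRNAs and ERCC spike-in transcripts only.

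IGF2BP2 is a cytoplasmic RNA-binding protein with RRM and KH domains that binds many mRNAs, among them transcripts carrying N6-methyladenosine, and is known for promoting their stability and translation. circRNAs are covalently closed molecules made when a downstream splice donor joins an upstream acceptor; having no free ends, they resist exonucleases and can persist in cells. Several are known to bind RNA-binding proteins, IGF2BP family members included, and RNA immunoprecipitation (RIP) followed by sequencing measures such association against a non-specific IgG control.

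The table lists 6384 circRNAs, of which 3683 had at least 1 count in the 6 libraries. A total of 3208 were seen with the IGF2BP2 antibody only, 196 with IgG only and 279 with both. circRNA counts per library were low, from 4448 to 5561 in the RIP and from 1960 to 2989 in IgG. An undetected circRNA therefore has an upper limit of 3 counts, which is 0.0539% of the circRNA counts in the deepest library (RIP replicate 1) and 0.153% in the shallowest (IgG replicate 2). Such limits, and the intervals given for ratios of counts, describe counting error alone: without molecular identifiers, reads are not independent molecules.

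Far more kinds of circRNA were recovered with the antibody than with IgG. The RIP libraries held 1908, 1681 and 1591 circRNAs and the IgG libraries 441, 407 and 434, so the groups did not overlap. The ratio of the means was 4.04, and it was 2.25 when every library was thinned to 1960 circRNA counts (924.4 ± 13.3 against 411.5 ± 3.88, SD, n = 3). Relative to the ERCC spike-in, added per the labels to the same quantity of RNA from each precipitate, there were 7279, 7058 and 8408 circRNA counts per 1000 ERCC counts in the RIP libraries and 22.3, 21.8 and 21.9 in the IgG libraries. Each of these 3 differences, in detection, thinned detection and circRNA per spike-in, had a two-sided exact permutation p of 0.1, the smallest that 3 against 3 libraries allow, and 0.1 after Benjamini-Hochberg adjustment over the 3.

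**Figure D1:**
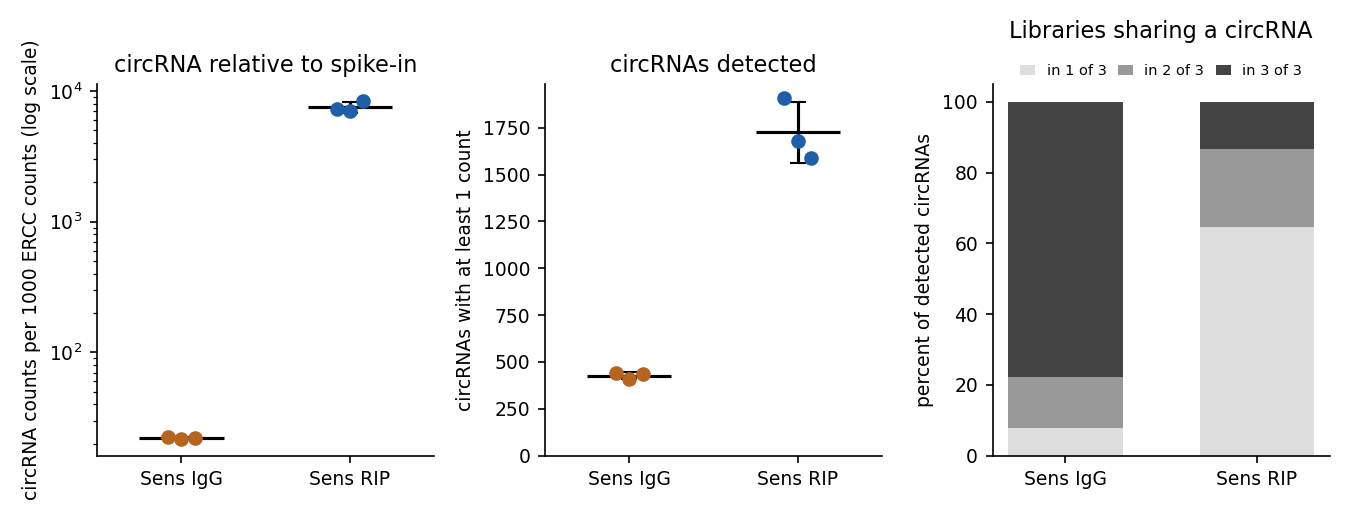
Left, circRNA counts per 1000 ERCC counts on a log axis; centre, circRNAs with at least 1 count; right, detected circRNAs (475 in Sens IgG, 3487 in Sens RIP) by the number of libraries of the group that held them, in percent. Points are libraries, lines and bars are means ± SD (n = 3). The RIP libraries lie above all IgG libraries in both measures, and 77.7% of IgG circRNAs but 13.3% of RIP circRNAs were present in all 3 libraries of their group.

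The IgG libraries resembled each other in which circRNAs they held. Of the 475 circRNAs seen with IgG, 369 were in all 3 libraries, whereas 464 of the 3487 seen in the RIP were. Any 2 IgG libraries shared 81.6% to 87.0% of the circRNAs found in either, against 25.1% to 27.4% for 2 RIP libraries. Only 29 IgG circRNAs (6.11%) had a summed count of 1, against 1837 (52.7%) in the RIP, and the most frequent IgG sum above 1 was 7 counts, held by 33 circRNAs. The counts of the IgG libraries still differed by more than sampling noise in every pair (chi-square test, p = 1.58e-05, 0.000218 and 5.53e-05). In the RIP, the second and the third library agreed within sampling noise (chi-square p = 0.151 over 117 circRNAs), while the first differed from both (p = 1.35e-05 and 0.000734). All 6 libraries were kept as samples. Whether the IgG libraries derive from separate precipitates was not tested.

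A total of 463 circRNAs had at least 2 counts in at least 3 of the 6 libraries and were tested. They carried 58.1% of RIP and 87.2% of IgG circRNA counts. This filter was met through all 3 RIP libraries alone by 163, through all 3 IgG libraries alone by 221, through both by 54 and through a mixture of libraries by 25. A circRNA that entered through only the group where it was high had to differ, so the counts of calls describe the tested set and not all circRNAs. With libraries scaled by TMM factors, 186 of the 463 (40.2%) were higher in the RIP and 179 (38.7%) lower, by edgeR's quasi-likelihood test with Benjamini-Hochberg adjustment. IgG counts were 0 in all libraries for 139 of the higher circRNAs, and RIP counts were 0 in all libraries for 104 of the lower ones. The groups did not overlap for 183 circRNAs (39.5%) in the direction of the RIP and for 185 (40.0%) in the direction of IgG.

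With the 3 IgG libraries summed to 1 sample, a fit in which the spread comes from the RIP libraries alone and IgG is assumed to vary like them, 179 of the higher and 166 of the lower circRNAs were called. When the summed IgG count of each circRNA was instead divided by 7, rounded and entered as 1 sample, an alternative added after the data were seen, edgeR called 29 higher, all among the 186, and 0 lower (19 lower at an unadjusted p under 0.05; no other tool was run on these values). This fit also has 1 IgG sample, and its IgG counts are smaller by construction, which leaves less power.

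**Figure D2:**
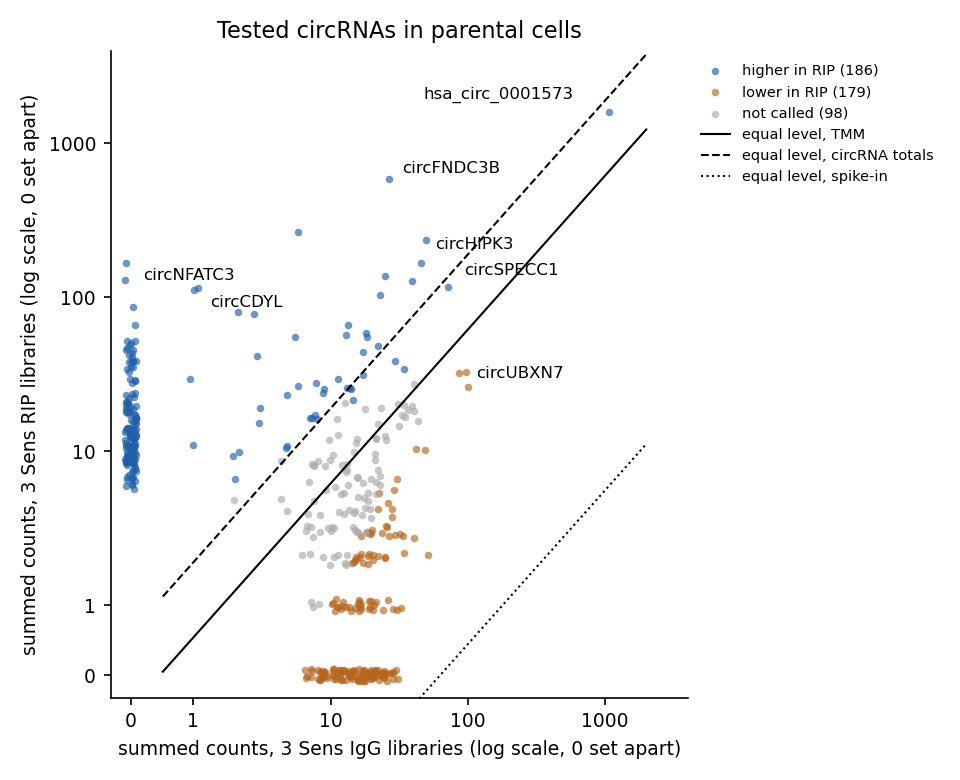
Summed counts of the 463 tested circRNAs in the 3 Sens RIP libraries (y) against the 3 Sens IgG libraries (x), on log axes with 0 set apart and points slightly jittered; colours give the calls on the TMM scale. The lines mark equal levels under the 3 scalings: the 186 higher and 179 lower circRNAs lie on either side of the TMM line, and every circRNA detected with both antibodies lies above the spike-in line. At these IgG counts 1 RIP count suffices for that, hsa_circ_0001573 apart.

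The direction for circRNAs seen with both antibodies depended on how libraries were scaled. Against TMM, scaling to circRNA totals moved all log2 ratios of summed counts by -1.62 and scaling to spike-in totals by 6.79. Fitted log2 fold changes moved by less for circRNAs at 0 counts in a group. For circNFATC3 they were 8.91 with TMM, 8.12 with circRNA totals and 15.01 with spike-in totals. With circRNA totals 158 of the 463 were higher (34.1%) and 255 lower (55.1%). With spike-in totals 325 were higher (70.2%) and 0 lower (0.0%) by edgeR, and none was lower even at an unadjusted p under 0.05. No other tool was run on that scale. ERCC counts averaged 656 per RIP library and 117842 per IgG library. At the IgG counts of the tested circRNAs, the most abundant one apart, a lower call could therefore not be reached, even with 0 RIP counts. Over the 463 circRNAs the median log2 fold change was -0.44 with TMM, -1.98 with circRNA totals and 6.27 with spike-in totals. With groups at 0 set to 3 counts these medians were -0.45, -2.07 and 6.34. The TMM factors rested on the 150 to 162 circRNAs that a RIP and an IgG library had in common, and were 0.542 to 0.603 in the RIP and 1.65 to 1.93 in IgG.

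A set of 158 circRNAs (34.1%) was higher in the RIP under all 3 scalings, which are all the higher calls made with circRNA totals. It comprised the 139 with no IgG count and 19 that IgG also recovered, and held 34.5% of the RIP circRNA counts. DESeq2 called 153 of the 158 higher. The 139 could enter the tested set only through the RIP libraries and had to differ, so agreement between scalings and tools adds no support for them. The same holds for those of the 19 that met the filter through the RIP libraries alone, circCDYL, circRHOBTB3 and circSETD3 among them. Lower levels in the RIP were scale-bound. All 179 TMM calls were also lower with circRNA totals, but 42 of them were called higher on the spike-in scale and 137 gave no call there, 104 of these with 0 RIP counts. The 75 with RIP counts all had a RIP to IgG ratio above 1 per spike-in count. Their summed IgG counts were at most 102, at which any RIP count gives such a ratio, so this followed from the ERCC totals.

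The files do not pair identifiers with gene names. To give the values a biological handle, 32 circRNAs that are widely known by a published name were looked up by their circBase identifiers, the names being background knowledge. Of these 25 are in the table and 19 were tested. On the TMM scale 12 of the 19 were higher in the RIP, 3 lower and 4 not called, with a median log2 fold change of 2.70 (2.71 with zero groups at 3 counts). The shares over all tested circRNAs were 40.2% and 38.7%. The list was chosen for being known, which favours abundant circRNAs, and with earlier results of these data known. Its calls and median therefore describe its members and are no evidence that known circRNAs differ from others. With circRNA totals 10 were higher and 7 lower, and with spike-in totals all 19 were higher. The same 10 were higher under all 3 scalings. Of these only circFNDC3B and circHIPK3 met the filter through both groups, the others through the RIP libraries alone.

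For 5 of the published circRNAs, IgG gave no count at all. circNFATC3 (hsa_circ_0000711), from the gene of an NFAT-family transcription factor, had 58, 36 and 43 counts in the RIP libraries, at least 74.1-fold higher than IgG on the TMM scale and at least 24.1-fold with circRNA totals (adjusted p = 2.43e-57 and 5.38e-25). Its RIP level was 9214 ± 1495 RPM (SD, n = 3), the depth-scaled unit of the series' design text, taken here over the circRNA counts of each library. circARID1A (hsa_circ_0008494), whose host encodes a SWI/SNF chromatin-remodelling subunit and tumour suppressor, had 33, 33 and 25 counts, at least 49.2-fold and 16-fold higher (adjusted p = 2.72e-38 and 7.6e-17). These lower bounds set IgG to 3 counts over its 3 libraries and take the RIP count as observed, so they are not 95% limits. The exact 95% lower limits were smaller, 59.5-fold and 19.3-fold for circNFATC3 on the 2 scales and 39.2-fold and 12.7-fold for circARID1A.

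The remaining members of this group were less abundant. circCRKL (hsa_circ_0001206), from the gene of an SH2 and SH3 adaptor protein, had 15, 15 and 17 counts and was at least 25.4-fold higher on the TMM scale (adjusted p = 5.85e-19). circZKSCAN1 (hsa_circ_0001727), from a zinc-finger transcription factor gene, had 12, 17 and 13 counts and was at least 22.7-fold higher (adjusted p = 1.62e-16). circPHC3 (hsa_circ_0001360), whose host encodes a Polycomb repressive complex subunit, had 14, 15 and 12 counts and was at least 22.2-fold higher (adjusted p = 5.13e-16). With circRNA totals the bounds for these 3 were 8.26-fold, 7.38-fold and 7.21-fold. Their exact 95% lower limits on the TMM scale were 19.9-fold, 17.7-fold and 17.2-fold. With no IgG count, these 5 could pass the filter only with at least 2 counts in all 3 RIP libraries, so their groups could not overlap.

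Another 3 published circRNAs had a summed IgG count of 1, in IgG replicate 1. circCDYL (hsa_circ_0008285), whose host encodes a chromodomain co-repressor, had 18, 53 and 44 RIP counts. Its ratio of summed counts was 187 on the TMM scale (exact 95% interval 32.8 to 7434; adjusted p = 5.73e-46), and RIP replicate 1 was the low library. circRHOBTB3 (hsa_circ_0007444) had 49, 27 and 29 RIP counts, with replicate 1 the high library, and a ratio of 170 (95% interval 29.9 to 6793; adjusted p = 7.24e-42). circSETD3 (hsa_circ_0000567), whose host encodes the actin histidine methyltransferase, had only 4, 6 and 2 RIP counts and a ratio of 19.5 (95% interval 2.88 to 832; adjusted p = 0.000166). These intervals are wide because the IgG count is 1. With that count these 3 could pass the filter only with at least 2 counts in all 3 RIP libraries. Their groups could therefore not overlap, and the adjusted p values add no independent support.

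circFNDC3B (hsa_circ_0006156), from the gene of a fibronectin type III domain membrane protein, was the most abundant named circRNA in the RIP and had a measurable background. It had 217, 155 and 198 counts in the RIP and 12, 8 and 6 in IgG. Its level was 38675 ± 6021 RPM in the RIP and 3402 ± 1120 RPM in IgG (SD, n = 3). The log2 fold change was 5.14 with TMM (SE 0.19, adjusted p = 5.39e-134), 3.52 with circRNA totals (SE 0.21) and 11.92 with spike-in totals (SE 0.27). The adjusted p was less extreme in other tools, 3.70e-33 in DESeq2 and 6.03e-05 in limma-voom. All RIP libraries exceeded all IgG libraries, and circFNDC3B had the smallest edgeR p of the 463 on the TMM scale.

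circHIPK3 (hsa_circ_0000284), formed from the gene of a homeodomain-interacting protein kinase and widely studied for microRNA binding, was abundant with both antibodies. The RIP libraries had 65, 69 and 48 counts and the IgG libraries 19, 12 and 14. That is 12314 ± 1914 RPM against 5800 ± 770 RPM, and the groups did not overlap. The log2 fold change was 2.70 with TMM (SE 0.21, adjusted p = 3.29e-33) and 1.09 with circRNA totals (SE 0.23, adjusted p = 9.09e-06), so circHIPK3 belongs to the 10 that were higher on every scale despite its background.

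Of the 3 scalings, TMM and spike-in totals called circSPECC1 and circFBXW7 higher in the RIP, and circRNA totals did not. circSPECC1 (hsa_circ_0000745), from the gene of a cytoskeletal coiled-coil protein, had 51, 41 and 31 RIP counts and 31, 21 and 22 IgG counts. Its log2 fold change was 1.42 with TMM (SE 0.21, adjusted p = 4.2e-10) but -0.20 with circRNA totals (adjusted p = 0.393), where the groups overlapped. circFBXW7 (hsa_circ_0001451), whose host encodes the substrate receptor of an SCF ubiquitin ligase that targets MYC, had 17, 7 and 10 RIP counts and 16, 9 and 7 IgG counts. Its groups overlapped on both scales, and its log2 fold change of 0.78 with TMM (SE 0.36, adjusted p = 0.0424) turned to -0.84 with circRNA totals (adjusted p = 0.0287). The circFBXW7 call was also lost without IgG replicates 2 or 3 or without RIP replicates 1 or 3 (adjusted p = 0.0607, 0.194, 0.377 and 0.0776) and in DESeq2 (0.430), with log2 fold changes of 0.43 to 1.09 over the libraries left out.

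The published circRNAs called lower in the RIP were 3, with adjusted p between 0.0119 and 0.0465. circUBXN7 (hsa_circ_0001380), from the gene of a cofactor of the p97 ATPase, had 34, 32 and 24 counts in IgG and 17, 5 and 11 in the RIP, and the groups overlapped on the TMM scale. Its log2 fold change was -0.76 with TMM (SE 0.28, adjusted p = 0.0119) and -2.39 with circRNA totals (adjusted p = 3.76e-16), but 6.0 with spike-in totals (adjusted p = 3.57e-45). circHIAT1 (hsa_circ_0000096), from a membrane transporter gene, had 4, 5 and 9 IgG counts and 0, 2 and 0 RIP counts, 5.55-fold lower by summed counts (95% interval 1.33 to 49.3; adjusted p = 0.0209). circFOXO3 (hsa_circ_0006404), from the gene of a forkhead transcription factor, had 6, 5 and 4 IgG counts and 0, 1 and 1 RIP counts, 4.62-fold lower (95% interval 1.07 to 41.7; adjusted p = 0.0465). Both were higher in the RIP on the spike-in scale (log2 fold change 4.26 and 4.51, adjusted p = 0.0167 and 0.0112). With the IgG libraries summed to 1 sample the log2 fold changes were -0.84, -2.45 and -2.19, against -0.76, -2.32 and -2.06 with 3 IgG samples, and none of the 3 was called (adjusted p = 0.105, 0.0627 and 0.0545). DESeq2 did not call circHIAT1 and circFOXO3 (adjusted p = 0.0520 and 0.0879).

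All 3 kept a negative log2 fold change whichever library was left out, from -0.39 to -1.14 for circUBXN7, from -1.75 to -5.38 for circHIAT1 and from -1.49 to -2.49 for circFOXO3. circHIAT1 and circFOXO3 had met the filter through all 3 IgG libraries alone, which favours a negative sign, so its stability adds no support for them. The circUBXN7 call was lost without IgG replicates 1 or 2 or RIP replicate 2 (adjusted p = 0.0786, 0.122 and 0.249). For circHIAT1 the same held without IgG replicate 3 or RIP replicates 1 or 3 (adjusted p = 0.0887, 0.107 and 0.105). circFOXO3 was called only when IgG replicate 3 was the library left out; without any other, adjusted p ranged up to 0.198.

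On the TMM scale 4 published circRNAs gave no call. circSMARCA5 (hsa_circ_0001445), whose host encodes the ISWI chromatin-remodelling ATPase, had 8, 3 and 7 IgG counts and 1, 0 and 2 RIP counts (3.70-fold lower, 95% interval 1.08 to 19.6; adjusted p = 0.0532). It was called lower without IgG replicate 2 or RIP replicate 3 (adjusted p = 0.0370 and 0.0436), and had met the filter through the IgG libraries alone. circARHGAP12 (hsa_circ_0000231) had 26, 5 and 15 counts in IgG and 5, 6 and 6 in the RIP, with IgG replicate 2 far below the other IgG libraries. Its log2 fold change was -0.70 (SE 0.40, adjusted p = 0.0995), and -0.99 without that library (adjusted p = 0.0193). circRBM33 (hsa_circ_0001772), from an RNA-binding protein gene, had 14, 12 and 11 IgG counts and 9, 12 and 9 RIP counts (log2 fold change 0.39, SE 0.36, adjusted p = 0.322). circCCDC66 (hsa_circ_0001313), from the gene of a microtubule-associated coiled-coil protein, had 5, 2 and 8 IgG counts and 6, 4 and 2 RIP counts (log2 fold change 0.37, SE 0.62, adjusted p = 0.592). With circRNA totals circSMARCA5 and circARHGAP12 were called lower (log2 fold change -3.30 and -2.29, adjusted p = 9.92e-05 and 5.75e-08), and with spike-in totals higher (4.86 and 6.08, adjusted p = 0.00120 and 5.36e-23). The signs of circRBM33 and circCCDC66 turned with circRNA totals (-1.22 and -1.21, adjusted p = 0.00153 and 0.0607).

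**Figure D3:**
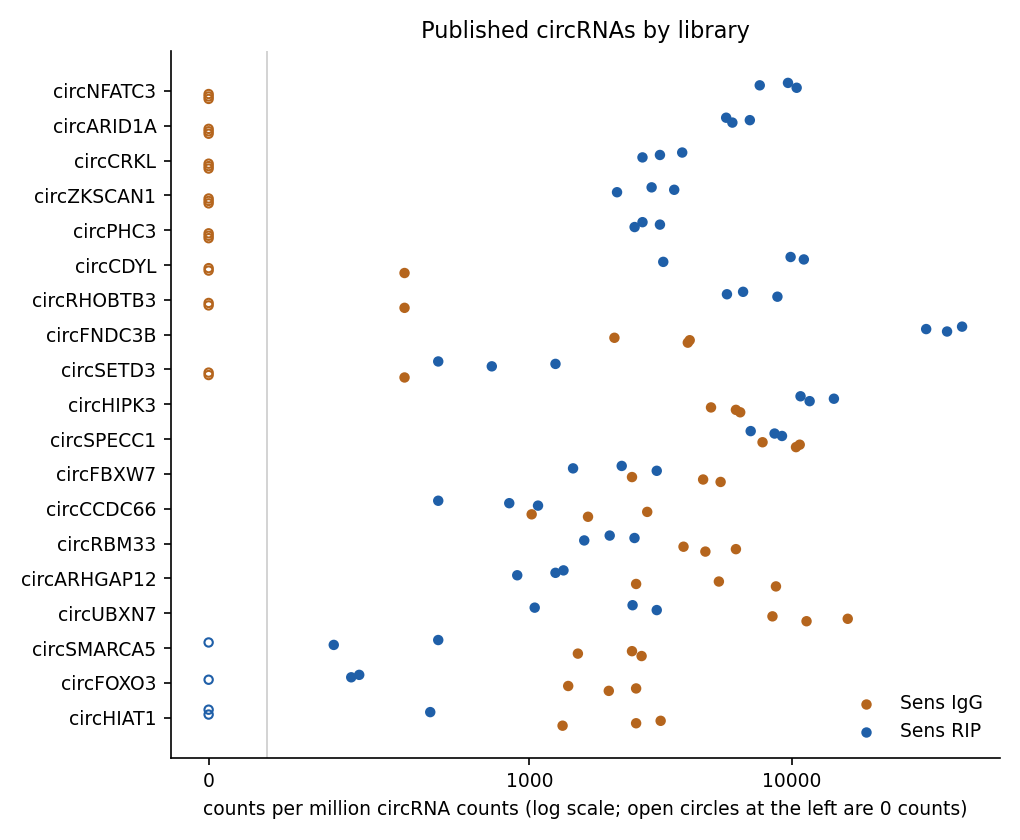
RPM over circRNA counts (log axis) of the 19 tested published circRNAs in each Sens IgG and Sens RIP library, ordered by log2 fold change with circRNA totals; open circles at the left are libraries with 0 counts. From circNFATC3 down to circHIPK3 every RIP library lies above every IgG library, circSPECC1, circFBXW7 and circCCDC66 overlap, and the others lie lower in the RIP on this scale.

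The remaining 6 published circRNAs in the table did not reach the filter in parental cells. circNRIP1 (hsa_circ_0004771) had 3 summed RIP counts and 6 IgG counts. circSHPRH (hsa_circ_0001649) had 3 RIP counts and no IgG count. circPUM1 (hsa_circ_0000043), circITCH (hsa_circ_0001141) and circRNF111 (hsa_circ_0001982) had 1 RIP count each, and circSLC8A1 (hsa_circ_0000994) had none with either antibody. At these counts a difference between the antibodies was not detectable.

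Outside the published list the strongest enrichment had the same form. Ordered by p among called circRNAs whose groups did not overlap, the first 10 higher circRNAs had 91 to 570 summed RIP counts. They had 0 to 47 IgG counts, 3 of them with no IgG count. Of the 10, 6 are on the published list, which was drawn up with earlier results of these data known. hsa_circ_0021570 had 88, 88 and 75 counts in the RIP and 2 in each IgG library (log2 fold change 5.98, SE 0.28, adjusted p = 1.17e-86). hsa_circ_0001359 had 50, 70 and 45 RIP counts and none in IgG (adjusted p = 5.57e-69). With IgG set to 3 counts it was at least 89.2-fold higher, and its exact 95% lower limit was 71.8-fold. Both were higher under all 3 scalings. Among all 139 tested circRNAs with no IgG count, summed RIP counts ran from 6 to 165 with a median of 13. The lower bound on enrichment, with IgG set to 3 counts, ran from 3.25-fold to 89.2-fold on the TMM scale.

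The first 10 lower circRNAs by the same rule had 25 to 102 summed IgG counts and 0 to 25 RIP counts, 6 of them with no RIP count, and none is on the published list. hsa_circ_0001439 had 22, 16 and 10 IgG counts and 1, 1 and 0 RIP counts, 14.8-fold lower by summed counts (95% interval 3.88 to 126; adjusted p = 1.63e-07). hsa_circ_0052743 had 8, 13 and 8 IgG counts and none in the RIP, at least 5.96-fold lower (adjusted p = 7.68e-06). Per spike-in count hsa_circ_0001439 was not called and its sign turned (log2 fold change 2.86, adjusted p = 0.0530), and hsa_circ_0052743 gave no call (adjusted p = 0.761). Over the 104 tested circRNAs with no RIP count, summed IgG counts ran from 7 to 29 with a median of 15. The bound on the decrease ran from 1.44-fold to 5.96-fold on the TMM scale. Such bounds set the RIP to 3 counts and take the IgG count as observed. Exact 95% limits are smaller, and at the smallest IgG sums they need not exclude equal levels.

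hsa_circ_0001573, named here after its values were seen, was the most abundant circRNA with either antibody. It took 11.7%, 11.7% and 11.6% of the circRNA counts of the RIP libraries (650, 556 and 518 counts) and 14.3%, 16.5% and 15.1% of those of the IgG libraries (426, 324 and 430 counts). The groups stood apart in opposite directions on different scales. Its log2 fold change was 1.24 with TMM (SE 0.11, adjusted p = 7.68e-29), -0.39 with circRNA totals (SE 0.10, adjusted p = 0.000182) and 8.04 with spike-in totals (SE 0.22). It and circFBXW7 were the 2 circRNAs called higher with TMM and lower with circRNA totals.

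**Figure D4:**
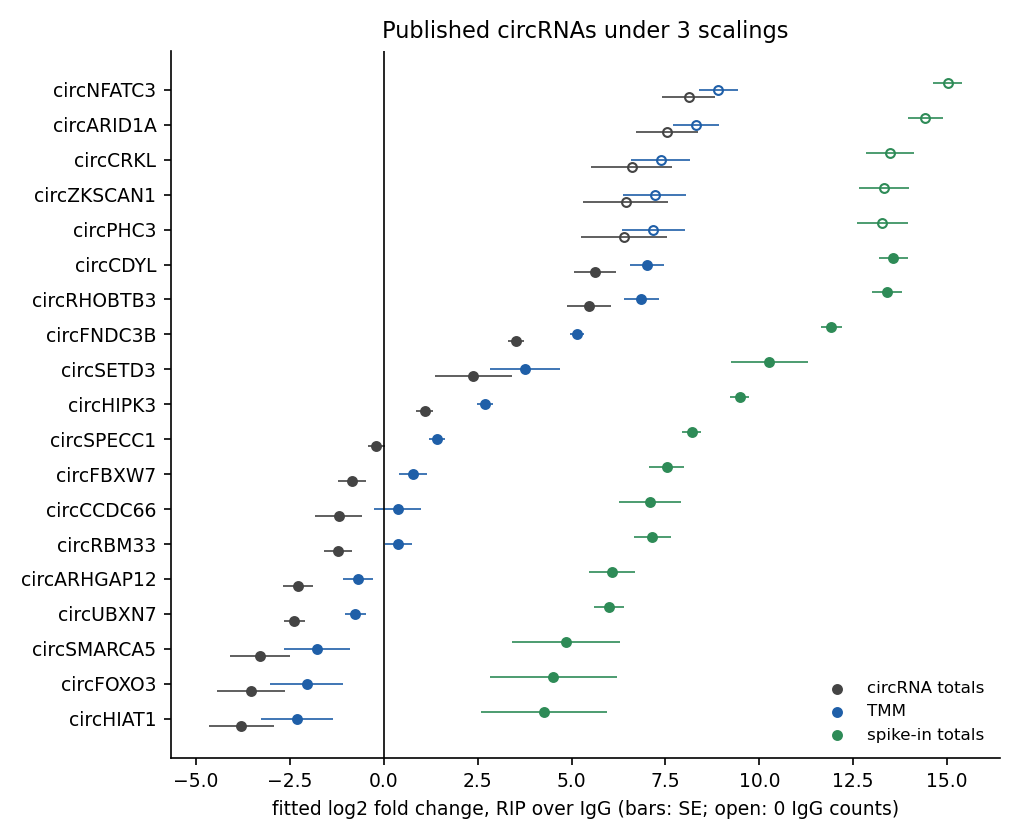
Fitted log2 fold change of RIP over IgG for the 19 tested published circRNAs under 3 scalings, with SE bars (6 Sens libraries); open symbols had 0 IgG counts, so their fitted values are not bounds. The values shift together between scalings: 10 are called higher on every scale, and all 19 lie above 0 with spike-in totals. At their IgG counts any RIP count gives a ratio above 1 on that scale.

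The submitters' own enrichment measure is a difference, RIP minus IgG in RPM. Here it was taken over the circRNA counts of a library, without the spike-in scaling by RUVSeq that the authors used. So taken, it was above 0 for 181 of the 463 tested circRNAs (39.1%) and below 0 for 282, with a median of -1079 RPM. The largest values belonged to circFNDC3B at 35273 RPM and hsa_circ_0021570 at 16246 RPM, and the most negative to hsa_circ_0001573 at -36364 RPM. Among the published circRNAs it was 9214 RPM for circNFATC3, 7968 for circCDYL, 6885 for circRHOBTB3, 6514 for circHIPK3 and 6157 for circARID1A, and -9853 RPM for circUBXN7. With all counts of the file as the denominator, spike-in included, 352 were above 0, and per 1000 ERCC counts 359 were. On that last scale hsa_circ_0001573 stood at 880.8 counts and circFNDC3B at 295.8 counts above IgG.

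In the resistant line, whose libraries had no part in these tests, 4274 of the 6384 circRNAs (66.9%) had at least 1 RIP count and 1243 (19.5%) at least 1 IgG count; among the 463 tested these were 357 (77.1%) and 183 (39.5%). Each resistant IgG library held 1039 to 1138 circRNAs, more than the 407 to 441 of parental IgG. Of the circRNAs higher in the parental RIP, 183 of 186 (98.4%) had at least 1 RIP count, with a median of 21 summed counts, and 92 (49.5%) had at least 1 IgG count. Of the 179 lower circRNAs, 87 (48.6%) were seen in the resistant RIP and 46 (25.7%) in resistant IgG, the antibody with which they had been found in parental cells. Of the 139 tested circRNAs with no parental IgG count, 63 had IgG counts in the resistant line. circPHC3 had none in any of the 6 IgG libraries of the series and 21, 27 and 14 counts in the resistant RIP. circCDYL had 22, 46 and 38 resistant IgG counts, and circSETD3 had 22, 22 and 45, where parental IgG had 1 count in all for each. Differences between the lines were not tested here.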

How the data were processed

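RIP-seq libraries of MDA-MB-231 cells were analysed from a deposited table of raw counts per circRNA (6384) and per ERCC transcript (57). The authors' deposited counts are whole numbers without scaling; per the labels' protocols, the authors scaled to the spike-in with RUVSeq. The genome build is GRCh37, per the submitters' processing notes; the aligner, the circRNA caller and strand handling are not given in the sources used here. Groups and replicate numbers came from sample titles. circRNA sequences were not used here.

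The 6 Sens libraries were fitted with edgeR 4.0.16 (R 4.3.3): TMM factors, library sizes from circRNA rows, quasi-likelihood test, a minimum of 2 counts in any 3 of the 6, Benjamini-Hochberg adjusted p under 0.05 called. ERCC rows (10.6% to 12.4% of RIP and 97.8% to 97.9% of IgG counts) entered only the spike-in scaling. The prior degrees of freedom were infinite, so the spread was pooled over circRNAs. SE is the log2 fold change over the root of F. Exact 95% intervals of ratios are Clopper-Pearson. Pairs of libraries were compared by chi-square over circRNAs with at least 10 counts in the pair, p above 0.01 in all pairs of a group being required to merge it. The fit was tested on simulated counts: changes balanced in direction were recovered with the right sign, not all past the threshold, whereas with mostly increases TMM moved unchanged circRNAs below 0 and called some of them.

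Named are the tested circRNAs of the published list and, of the first 10 non-overlapping calls per direction by p, at most 2 unlisted identifiers. Alternatives were other scalings, DESeq2 1.42.0, limma-voom (limma 3.58.1), other filters, all 12 libraries in 1 fit, summed libraries, a replicate block and leaving out each library. The circRNAs, lists and tests were chosen with earlier results of these data known.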

Additional observations from a re-analysis of the deposited data

How the results depend on the processing

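On the main scale 365 of 463 circRNAs were called, 186 higher and 179 lower. Leaving out each library gave 332 to 355 calls, 181 to 186 higher and 149 to 169 lower. Requiring 5 counts left 163 tested and 130 called, 73 higher and 57 lower; requiring 10 left 46 tested and 41 called, 29 higher and 12 lower. With no filter beyond 1 count 3683 were tested, 264 higher and 105 lower. With spike-in totals 325 were higher and 0 lower. The IgG sum divided by 7 left 29 calls, 29 higher and 0 lower, and 8 of the published list. Each library as a sample is the main setting itself. RLE factors, no scaling, TMMwsp, DESeq2, limma-voom, all 12 libraries in 1 fit, IgG summed and RIP replicates 2 and 3 summed kept the higher and lower counts within 1.5 times. The replicate block gave 146 higher and 111 lower calls. Same-numbered libraries showed little shared deviation (r = -0.03, 0.02 and 0.09). At such low counts these correlations cannot exclude a pairing, and no crossed pairing was run.

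Of the published list 15 were called, 12 to 14 when each library was left out, with 11 to 12 higher and 1 to 3 lower. Higher calls were 19 with spike-in totals. Lower calls were 7 with circRNA totals, 5 with RLE and TMMwsp factors, 1 with DESeq2 and with 5 counts required. They were 0 with spike-in totals, limma-voom, no filter, IgG summed, RIP replicates 2 and 3 summed and the divided IgG sum; at an unadjusted p under 0.05 these settings gave 0, 0, 4, 3, 1 and 0.

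Signs turned with spike-in totals for circUBXN7 (6.0), circHIAT1 (4.26), circFOXO3 (4.51), circSMARCA5 (4.86), circARHGAP12 (6.08) and hsa_circ_0001439 (2.86). They turned with circRNA totals for circSPECC1 (-0.20), circFBXW7 (-0.84), circRBM33 (-1.22), circCCDC66 (-1.21) and hsa_circ_0001573 (-0.39), and with 10 counts required for circSPECC1 (-0.27), circFBXW7 (-0.91), circRBM33 (-1.29) and hsa_circ_0001573 (-0.46). circRBM33 and circCCDC66 also turned with no scaling (-0.30 and -0.31) and TMMwsp (-0.092 and -0.10). The cause was not tested beyond the shift in scale that each setting makes.

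The detection ratio of 4.04 was 1.74 at 2 counts and 2.25 thinned, and 3.83 to 4.20 leaving out each library; the circRNA per ERCC ratio of 344 ran from 326 to 356. RIP minus IgG was above 0 for 181, for 352 with all counts as denominator and for 359 per 1000 ERCC counts. Depth limits circRNAs with few counts: with 1 IgG count, intervals spanned over 2 orders of magnitude.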

Other observations

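The most abundant circRNAs of the antibodies overlapped in part. Of the 10 highest by summed counts in the parental RIP, 4 were among the 10 highest in IgG: hsa_circ_0001573, circHIPK3, circSPECC1 and 1 circRNA without a published name on the list. Of the top 50, 11 were shared, and of the top 100, 23. The 10 highest took 24.8% of RIP and 22.8% of IgG circRNA counts. circRNAs seen with both antibodies carried 71.1% of the IgG counts and 40.2% of the RIP counts.

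circRNAs seen in the parental line with IgG only numbered 196 and held 28.9% of the parental IgG counts. In the resistant line 29 of them (14.8%) were seen with IgG and 67 (34.2%) with the antibody. Of the 3208 seen in the parental RIP only, 1722 (53.7%) were seen in the resistant RIP. These shares stand beside 66.9% of all 6384 circRNAs seen in the resistant RIP and 19.5% seen in resistant IgG. The share in the resistant RIP was 79.9% for circRNAs seen with both antibodies in the parental line. For the 2701 seen there with neither it was 83.7%, and 23.3% in resistant IgG. These 2701 raise the shares over all 6384 circRNAs, which are thus no baseline for circRNAs seen in parental cells.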
